A study of Homo sapiens with 12 samples.

Results

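The genes described here were 33 named genes of the endoplasmic reticulum (ER) folding machinery and of the unfolded protein response, chosen by name from a list of known function. Deposited transcripts matched 32 of them among 35810 genes with any matched transcript, and all 32 were among the 12821 genes that passed the filter on low counts and were tested. DERL3, a derlin of ER-associated degradation, was not analysed here. The cells were HepG2, a human hepatoblastoma-derived liver cancer line, either with ARID1B inactivated by CRISPR/Cas9 (ARID1B-KO) or wild type (WT). ARID1B belongs to the BAF (SWI/SNF) complex, which remodels chromatin, and helps it to bind DNA. Each genotype received sorafenib, a multikinase inhibitor used against liver cancer, at 5 µM for 48 h, or its solvent dimethyl sulphoxide (DMSO) at 0.1% by volume. The 4 groups were ARID1B-KO with sorafenib, ARID1B-KO with DMSO, WT with sorafenib and WT with DMSO, with 3 biological replicates of polyA-selected RNA each. All were grown in DMEM with 10% fetal bovine serum and penicillin-streptomycin. The labels did not say how many knockout clones were used, nor whether replicates were separate cultures, so p-values measure only the spread between these samples.

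The ER folds and modifies secreted and membrane proteins, a heavy load in liver cells, which secrete most plasma proteins. BiP, the product of HSPA5, is the central chaperone: it binds unfolded chains and, in unstressed cells, the luminal domains of the stress sensors IRE1 (gene ERN1), PERK (gene EIF2AK3) and ATF6. When unfolded protein accumulates, IRE1 splices XBP1 mRNA into the form that encodes an active transcription factor, ATF6 is cleaved in the Golgi to release another, and PERK phosphorylates eIF2α, which lowers translation and favours that of ATF4. XBP1 and ATF6 raise chaperones, folding enzymes and the components of ER-associated degradation (ERAD), which returns misfolded protein to the cytosol for destruction by the proteasome.

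The promoters below are shown because they carry the sequence elements through which ATF6 with NF-Y, and XBP1, are known to act, and because their genes are among those that the results turn on. Each is the 250 bases before a start of the gene in RefSeq (build GRCh38.p14), 5′ to 3′ in the direction of transcription, with matches in capitals. For HSPA5, HYOU1 and HSP90B1 that start lies inside the gene span of the annotation used for counts, so the printed bases overlap that span. Capitals mark the ER stress element (ERSE, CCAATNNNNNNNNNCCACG) or ERSE-II (ATTGGNCCACG), searched on both strands, so a match on the opposite strand reads CGTGG first. HSPA5 was at chr9:125241344-125241593 (minus strand), SDF2L1 at chr22:21642052-21642301 (plus), HYOU1 at chr11:119057206-119057455 (minus), HERPUD1 at chr16:56931892-56932141 (plus) and HSP90B1 at chr12:103930160-103930409 (plus).
HSPA5: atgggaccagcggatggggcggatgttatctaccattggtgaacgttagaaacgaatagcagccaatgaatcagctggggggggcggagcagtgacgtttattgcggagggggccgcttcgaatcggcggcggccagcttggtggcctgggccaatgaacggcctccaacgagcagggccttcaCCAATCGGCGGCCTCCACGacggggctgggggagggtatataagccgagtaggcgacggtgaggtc
SDF2L1: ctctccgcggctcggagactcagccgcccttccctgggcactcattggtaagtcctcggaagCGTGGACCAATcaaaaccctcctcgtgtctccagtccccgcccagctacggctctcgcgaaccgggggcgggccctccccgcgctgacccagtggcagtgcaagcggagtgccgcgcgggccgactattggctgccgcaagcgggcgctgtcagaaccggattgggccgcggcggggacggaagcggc
HYOU1: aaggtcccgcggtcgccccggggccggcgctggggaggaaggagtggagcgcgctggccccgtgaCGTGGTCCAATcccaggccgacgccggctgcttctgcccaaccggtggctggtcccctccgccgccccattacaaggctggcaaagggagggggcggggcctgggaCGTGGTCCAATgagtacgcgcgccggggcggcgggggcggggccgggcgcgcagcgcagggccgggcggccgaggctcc
HERPUD1: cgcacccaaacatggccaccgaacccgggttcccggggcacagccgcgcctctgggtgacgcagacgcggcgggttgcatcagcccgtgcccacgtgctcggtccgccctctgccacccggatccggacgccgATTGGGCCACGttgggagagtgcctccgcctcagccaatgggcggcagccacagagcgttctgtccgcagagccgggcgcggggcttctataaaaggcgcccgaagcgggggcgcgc
HSP90B1: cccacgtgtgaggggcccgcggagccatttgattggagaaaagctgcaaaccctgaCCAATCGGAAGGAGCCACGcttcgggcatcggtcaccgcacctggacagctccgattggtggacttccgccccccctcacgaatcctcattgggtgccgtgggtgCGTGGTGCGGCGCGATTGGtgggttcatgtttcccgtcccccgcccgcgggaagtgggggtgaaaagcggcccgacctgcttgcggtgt
HSPA5 held 1 ERSE, at 66 bases before the start, HSP90B1 held 2, and SDF2L1, HYOU1 and HERPUD1 held ERSE-II, HYOU1 at 2 places. Over windows of 250 bases before to 50 after the start, ERSE occurred in 27 of 35116 RefSeq promoters (0.0769%) and ERSE-II in 19 (0.0541%). Of the 29 members with such a window, 8 held ERSE (HSPA5, HSP90B1, CALR, CANX, PDIA6, ERO1B, CRELD2 and XBP1) and 3 held ERSE-II. Counted by window, as for all promoters, 10 of 37 member windows held ERSE and 3 held ERSE-II. The shorter core TGACGTGG, bound by ATF6 and XBP1, occurred in 256 windows (0.729%) and in 1 member, HYOU1, where it overlapped the upstream ERSE-II. A match is a description of the letters, not evidence of binding in these cells.

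ARID1B itself was lower in the knockout libraries. It had 35.6, 25.9 and 26.5 counts-per-million (CPM, estimated counts per gene scaled to the library's normalised total, not to gene length) in ARID1B-KO with sorafenib and 26.4, 28.0 and 27.6 CPM in ARID1B-KO with DMSO, against 67.5, 69.1 and 62.3 CPM in WT with sorafenib and 58.4, 61.9 and 66.7 CPM in WT with DMSO. Transcripts of the gene remained measurable in ARID1B-KO cells, at log2 fold changes of -1.18 under sorafenib and -1.19 under DMSO. Library totals ran from 19739582 to 29398257 estimated counts. Liver markers were high throughout (ALB 31819 to 108030 CPM, AFP 17836 to 28399 CPM, HNF4A 200.2 to 317 CPM), and DCN, PTPRC and HBB, which mark fibroblasts, leukocytes and erythroid cells, had no counts. The summed level of 8 liver markers was 117540 to 183490 CPM, 90904 to 109640 CPM, 97448 to 106320 CPM and 79652 to 89346 CPM in the 4 groups in the order above. Of 4 fibroblast markers, PDGFRB alone exceeded 1 CPM, and their sum was 0.938 to 1.64, 2.60 to 4.49, 3.19 to 4.74 and 13.8 to 22.1 CPM in the same order. The sum of 3 endothelial markers ran the other way, at 7.01 to 10.6, 2.93 to 6.70, 2.91 to 4.14 and 1.16 to 1.95 CPM, with CDH5 at up to 7.95 CPM. The part of these low signals in the results was not tested.

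Over all 32 measured genes, the group took up 0.902 to 1.13% of counts in ARID1B-KO with sorafenib, 1.24 to 1.44% in ARID1B-KO with DMSO, 1.35 to 1.47% in WT with sorafenib and 1.61 to 1.78% in WT with DMSO. The 4 ranges did not overlap except that the ARID1B-KO DMSO and WT sorafenib libraries met between 1.35 and 1.44%. The share of albumin mRNA ran the other way, at 6.86 to 9.63%, 5.08 to 5.59%, 4.14 to 4.38% and 3.26 to 3.42% in the same order, and its part in the lower shares of other genes was not tested. Within each group 1 library held the lowest CPM of most members: replicate 3 of ARID1B-KO with sorafenib for 29 of 32, replicate 3 of ARID1B-KO with DMSO for 23, replicate 3 of WT with sorafenib for 25 and replicate 1 of WT with DMSO for 24. In bulk RNA, fewer cells and less RNA per cell cannot be told apart.

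Sorafenib lowered a block of BiP-centred genes in both genotypes. With edgeR's quasi-likelihood test and Benjamini-Hochberg adjustment over all 12821 genes (called at an adjusted p under 0.05), 13 of the 32 members fell and 1 rose in ARID1B-KO cells, where 23.7% of all tested genes fell and 23.0% rose. In WT cells 11 fell and none rose, by edgeR or by DESeq2 or at an unadjusted p under 0.05, where 18.0% of all tested genes fell and 17.5% rose. HSPA5, HYOU1, DNAJB9, DNAJB11, DNAJC3, SDF2L1, CRELD2, XBP1 and SEC24D fell in both. The median log2 fold change of the members was -0.23 in ARID1B-KO cells and -0.26 in WT cells, beside 0.01 and -0.01 for all tested genes. Leaving out 1 library at a time gave 12 to 15 called members in ARID1B-KO cells and 5 to 12 in WT cells, with 5 without replicate 3 of WT sorafenib and 6 without replicate 3 of WT DMSO. The share of all genes called in these reduced fits is not given here.

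**Figure D1:**
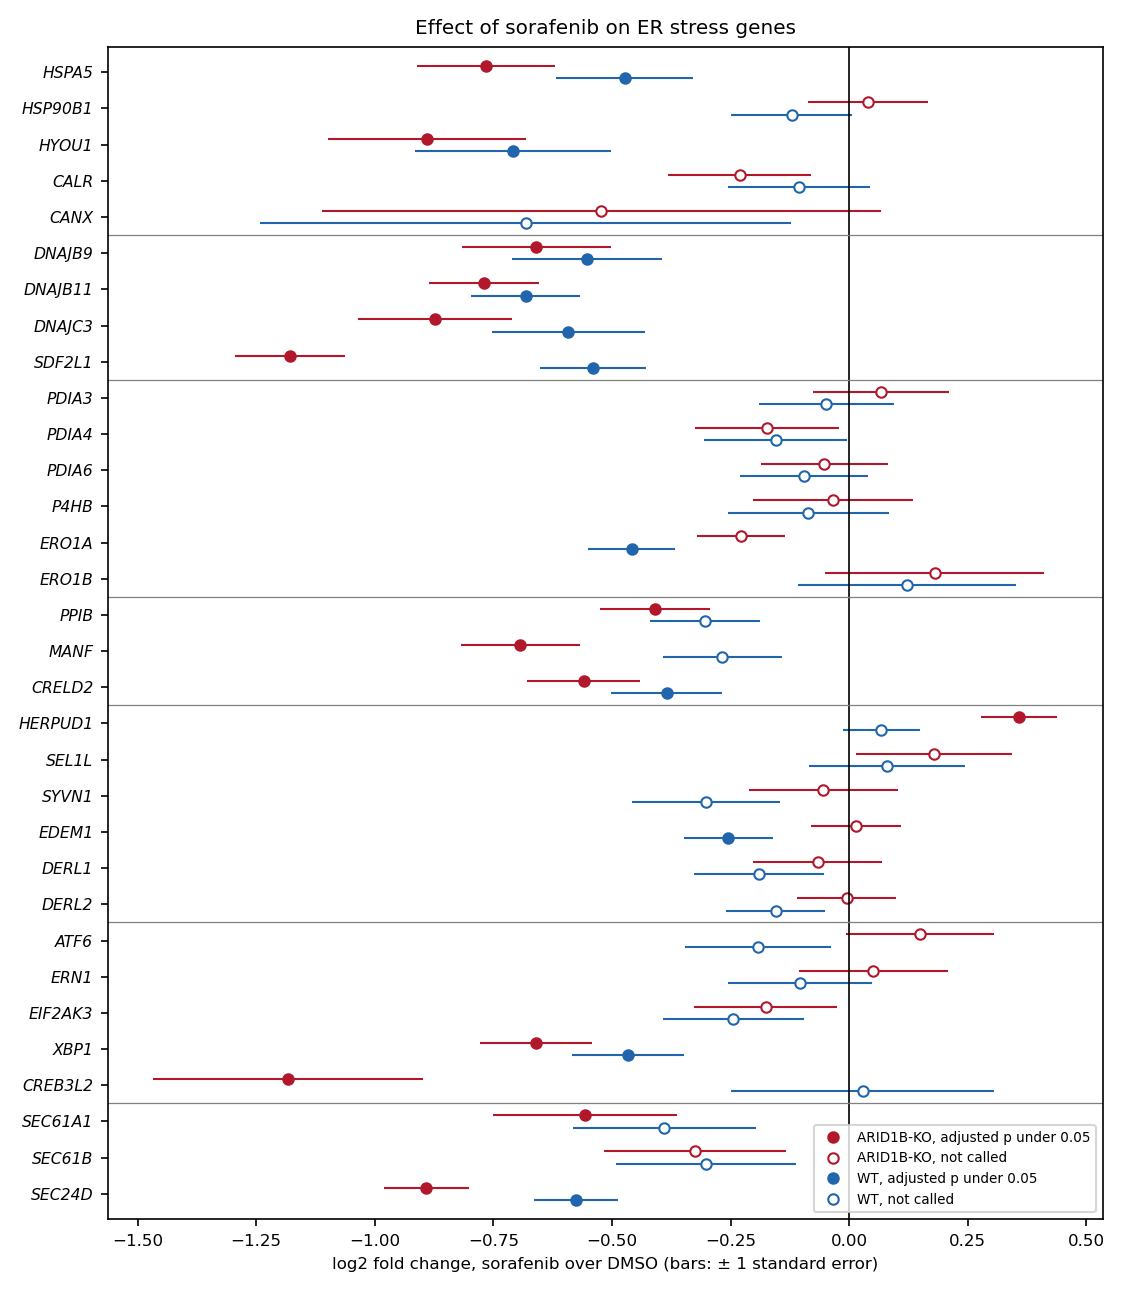
Log2 fold change of each measured member with sorafenib over DMSO (horizontal axis, 0 is no difference), in ARID1B-KO and in WT cells, with bars of 1 standard error from edgeR and filled points for adjusted p under 0.05. Filled points lie left of 0 for the BiP partners in both genotypes, and the 1 filled point to the right is HERPUD1 in ARID1B-KO cells.

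HSPA5 (GRCh38 chr9:125234853-125241382, minus strand), which encodes BiP, had 1279, 1153 and 870.3 CPM in ARID1B-KO with sorafenib and 1852, 2082 and 1680.1 CPM in ARID1B-KO with DMSO, against 1636, 1646.5 and 1410.5 CPM in WT with sorafenib and 2082, 2178 and 2253.5 CPM in WT with DMSO. The sorafenib and DMSO libraries did not overlap in either genotype, and the lowest values were all in sorafenib-treated ARID1B-KO cells. The log2 fold change with sorafenib was -0.77 ± 0.15 (SE, edgeR adjusted p = 0.000847) in ARID1B-KO cells and -0.47 ± 0.14 (adjusted p = 0.0214) in WT cells. The WT call was lost when replicate 2 or 3 of WT DMSO or replicate 3 of WT sorafenib was left out, with adjusted p-values from 0.0562 to 0.0929.

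HYOU1 (chr11:119044188-119057227, minus strand), a large Hsp70-family chaperone that exchanges the nucleotide of BiP, had 253, 212 and 131 CPM in ARID1B-KO with sorafenib and 396, 405 and 304 CPM in ARID1B-KO with DMSO, against 318, 375 and 289.6 CPM in WT with sorafenib and 459, 549.7 and 597 CPM in WT with DMSO. Both pairs of groups were separate. Its log2 fold changes with sorafenib were -0.89 ± 0.21 (adjusted p = 0.00371) in ARID1B-KO cells and -0.71 ± 0.21 (adjusted p = 0.0177) in WT cells. The WT call was lost when replicate 3 of WT DMSO or replicate 1 or 3 of WT sorafenib was left out (adjusted p from 0.0543 to 0.0715).

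HSP90B1 and CALR were not called with sorafenib by edgeR in either genotype. HSP90B1, the ER member of the Hsp90 family, had 2278, 1988 and 1627 CPM in ARID1B-KO with sorafenib and 1983, 1971 and 1776 CPM in ARID1B-KO with DMSO, against 2337, 2293 and 2105 CPM in WT with sorafenib and 2453, 2487 and 2383 CPM in WT with DMSO. The ARID1B-KO groups overlapped, while in WT cells every sorafenib library was below every DMSO library. The log2 fold changes were 0.04 (adjusted p = 0.821) in ARID1B-KO and -0.12 (adjusted p = 0.5) in WT cells. CALR, the calcium-binding lectin calreticulin, had log2 fold changes of -0.23 (adjusted p = 0.23) in ARID1B-KO and -0.105 (adjusted p = 0.629) in WT cells, and was called in ARID1B-KO cells with total counts only (-0.34, adjusted p = 0.0407). HSP90B1 and HSPA5 both carry ERSE in their promoter windows, and the difference between their fold changes was not tested. CANX, the membrane-bound lectin calnexin, could not be interpreted: its matched transcripts had 2.60 to 36.7 CPM, while transcripts without a gene name in the annotation used, of the same lengths as the main CANX transcripts, held 14534 to 38970 counts per library at 4207 bases.

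All 4 BiP partners fell in both genotypes. They are the co-chaperones DNAJB9, DNAJB11 and DNAJC3, J-domain proteins that start the ATPase cycle of BiP, and SDF2L1, which forms a complex with DNAJB11. SDF2L1 (chr22:21642302-21644299, plus strand) had 18.9, 15.8 and 13.8 CPM in ARID1B-KO with sorafenib and 35.8, 38.1 and 36.0 CPM in ARID1B-KO with DMSO, against 30.2, 34.5 and 27.3 CPM in WT with sorafenib and 42.9, 43.9 and 46.9 CPM in WT with DMSO. The ARID1B-KO sorafenib libraries lay below all 9 others. Its log2 fold change was -1.18 ± 0.12 (adjusted p = 4.58e-06) in ARID1B-KO cells and -0.54 ± 0.11 (adjusted p = 0.00226) in WT cells.

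DNAJB11 had 138, 126 and 98.2 CPM in ARID1B-KO with sorafenib and 203, 220.3 and 192 CPM in ARID1B-KO with DMSO, against 147, 136 and 124 CPM in WT with sorafenib and 224, 210.2 and 218 CPM in WT with DMSO. In both genotypes every sorafenib library was below every DMSO library. The log2 fold changes were close in size, -0.77 ± 0.12 (adjusted p = 0.000148) in ARID1B-KO and -0.68 ± 0.12 (adjusted p = 0.000558) in WT cells. DNAJC3, also known as a PERK inhibitor, had 77.7, 74.5 and 56.4 CPM in ARID1B-KO with sorafenib and 158, 126 and 97.9 CPM in ARID1B-KO with DMSO, against 98.6, 99.5 and 85.8 CPM in WT with sorafenib and 127, 148 and 152 CPM in WT with DMSO. The sorafenib and DMSO values were again separate in each genotype, with log2 fold changes of -0.87 ± 0.16 (adjusted p = 0.000817) and -0.59 ± 0.16 (adjusted p = 0.0122), the second lost without replicate 3 of WT sorafenib (adjusted p = 0.0547). DNAJB9, which also keeps IRE1 inactive through BiP, fell by 0.66 (adjusted p = 0.00436) and 0.55 (adjusted p = 0.0155) on the log2 scale, the second lost when replicate 3 of WT DMSO or replicate 2 or 3 of WT sorafenib was left out (adjusted p from 0.0523 to 0.0674).

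The members included 6 thiol oxidoreductases, which make and reshuffle disulphide bonds. None of 6 was called in ARID1B-KO cells, by edgeR or by DESeq2, although 1 (ERO1A) had an unadjusted p under 0.05 in edgeR and was called with total counts only (adjusted p = 0.0101) and without replicate 3 of ARID1B-KO DMSO (0.00701). In WT cells 1 of 6 fell, again ERO1A. Of all tested genes, 23.7% fell in ARID1B-KO cells and 18.0% in WT cells. With 6 genes, neither count can be told apart from these shares. The log2 fold changes of PDIA3, PDIA4, PDIA6, P4HB and ERO1B lay between -0.17 and 0.18 in both genotypes. ERO1A, the oxidase that recharges protein disulphide isomerase and is known to be raised by hypoxia, had 105, 103 and 99.2 CPM in ARID1B-KO with sorafenib and 132, 126 and 102 CPM in ARID1B-KO with DMSO, against 129.6, 128 and 122 CPM in WT with sorafenib and 173, 169 and 179 CPM in WT with DMSO. Its ARID1B-KO groups overlapped and its WT groups were separate, with log2 fold changes of -0.23 ± 0.09 (adjusted p = 0.0595) in ARID1B-KO cells and -0.46 ± 0.09 (adjusted p = 0.00189) in WT cells.

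The 3 genes for a prolyl isomerase and secreted folding factors fell in ARID1B-KO cells. PPIB, or cyclophilin B, fell by 0.41 (adjusted p = 0.0111), MANF, a BiP-binding factor that ER stress releases from cells, fell by 0.69 (adjusted p = 0.000659), and CRELD2, an ER-resident factor with disulphide isomerase activity, fell by 0.56 (adjusted p = 0.00188) on the log2 scale. In WT cells CRELD2 fell by 0.38 (adjusted p = 0.0209), while PPIB at -0.30 (adjusted p = 0.058) and MANF at -0.27 (adjusted p = 0.117) did not pass. The PPIB call in ARID1B-KO cells was lost without replicate 2 of ARID1B-KO DMSO (adjusted p = 0.0536). The CRELD2 call in WT cells was lost when replicate 1 or 3 of WT DMSO or replicate 3 of WT sorafenib was left out (adjusted p from 0.0561 to 0.0865), and with effective lengths in the fit (adjusted p = 0.291).

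Genes of ERAD moved little with sorafenib, and the 1 that passed in ARID1B-KO cells rose. HERPUD1 (chr16:56932142-56944864, plus strand), a ubiquitin-like membrane protein that assembles the HRD1 ligase complex, had 99.9, 89.4 and 82.4 CPM in ARID1B-KO with sorafenib and 69.7, 71.6 and 70.8 CPM in ARID1B-KO with DMSO, against 100.2, 108 and 95.3 CPM in WT with sorafenib and 94.4, 98.8 and 96.0 CPM in WT with DMSO. The ARID1B-KO DMSO libraries lay below all 9 others, and the log2 fold change with sorafenib was 0.36 ± 0.08 (adjusted p = 0.00295) in ARID1B-KO cells and 0.07 (adjusted p = 0.552) in WT cells. With the effective length of each gene in each library taken into account, its log2 fold change was 0.33 with an adjusted p of 0.308. SEL1L and SYVN1, the adaptor and the ubiquitin ligase of the HRD1 complex, and DERL1 and DERL2, its derlins, passed in neither genotype, with log2 fold changes between -0.30 and 0.18. EDEM1, which delivers mannose-trimmed glycoproteins to degradation, had a log2 fold change of -0.26 in WT cells at the edge of the threshold (adjusted p = 0.049977), and of 0.02 in ARID1B-KO cells. The WT call was lost under 6 of 7 other settings and on leaving out any single one of 10 libraries, all but replicate 1 of WT DMSO and replicate 3 of ARID1B-KO sorafenib (adjusted p of up to 0.205).

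Among the sensors and transcription factors, XBP1 fell in both genotypes and the 3 sensors in neither. XBP1 (chr22:28794555-28800597, minus strand) had 207, 217 and 156 CPM in ARID1B-KO with sorafenib and 330.5, 282 and 303 CPM in ARID1B-KO with DMSO, against 246, 269.7 and 248 CPM in WT with sorafenib and 337, 349 and 369 CPM in WT with DMSO. All 6 sorafenib libraries were below all 6 DMSO libraries, at log2 fold changes of -0.66 ± 0.12 (adjusted p = 0.000565) in ARID1B-KO and -0.47 ± 0.12 (adjusted p = 0.00771) in WT cells. ATF6, ERN1 and EIF2AK3 had log2 fold changes between -0.24 and 0.15, with adjusted p-values from 0.23 to 0.816.

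CREB3L2 (chr7:137874979-138002086, minus strand), a membrane-bound transcription factor related to ATF6 that drives genes of the secretory pathway, had 40.4, 50.8 and 28.8 CPM in ARID1B-KO with sorafenib and 76.6, 78.3 and 118 CPM in ARID1B-KO with DMSO, against 82.2, 149.9 and 92.3 CPM in WT with sorafenib and 82.5, 112 and 123 CPM in WT with DMSO. The ARID1B-KO sorafenib libraries were below all 9 others, and the WT groups overlapped. The log2 fold change was -1.18 ± 0.28 (adjusted p = 0.00597) in ARID1B-KO cells and 0.03 (adjusted p = 0.948) in WT cells.

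Of the 3 genes for entry into and exit from the ER, SEC24D (chr4:118722823-118838683, minus strand), a cargo-binding subunit of the COPII coat, had 44.6, 53.7 and 55.4 CPM in ARID1B-KO with sorafenib and 95.2, 91.7 and 97.9 CPM in ARID1B-KO with DMSO, against 65.6, 61.4 and 66.9 CPM in WT with sorafenib and 102, 90.5 and 96.8 CPM in WT with DMSO. The DMSO libraries of both genotypes shared one range, and the sorafenib libraries lay below it in 2 separate ranges. SEC24D changed by -0.89 ± 0.09 (adjusted p = 5.3e-06) in ARID1B-KO and -0.58 ± 0.09 (adjusted p = 0.000256) in WT cells. SEC61A1, the channel-forming subunit of the translocon, fell by 0.56 on the log2 scale in ARID1B-KO cells (adjusted p = 0.0313), although its groups overlapped. That call was lost when replicate 1 or 2 of ARID1B-KO DMSO or replicate 2 or 3 of ARID1B-KO sorafenib was left out (adjusted p from 0.0515 to 0.178), with effective lengths in the fit (0.0591) and with only the compared groups in it (0.0685). SEC61B, a small translocon subunit, passed in neither genotype.

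**Figure D2:**
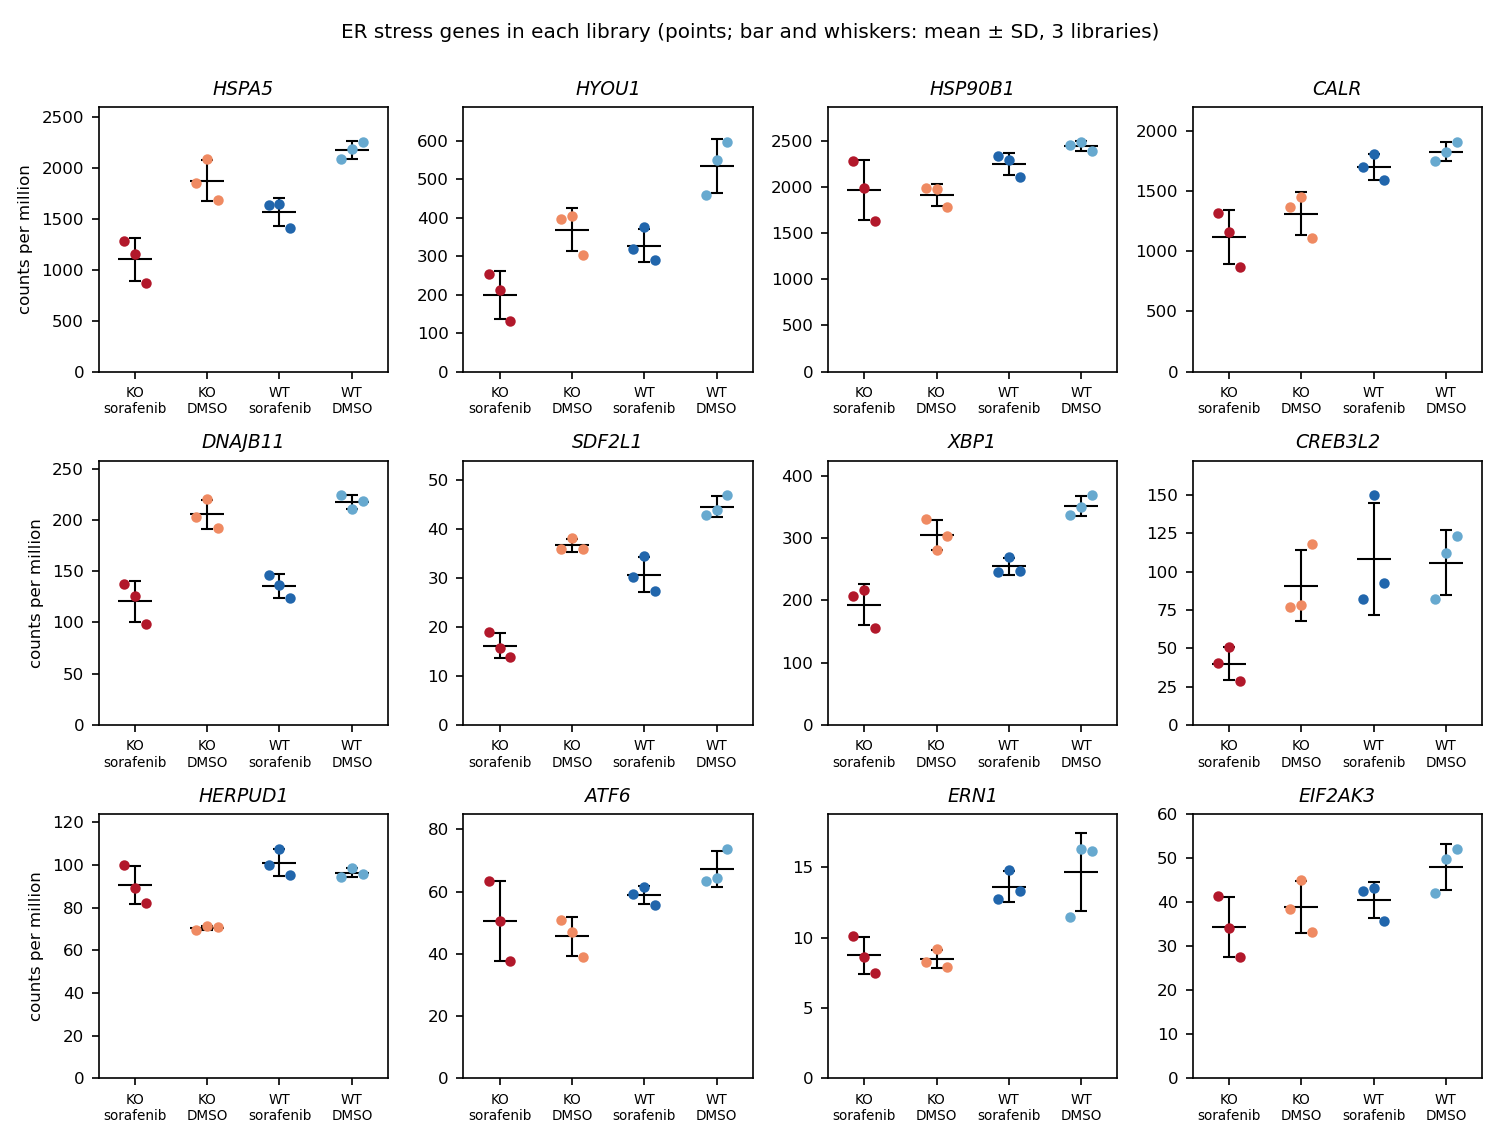
CPM (vertical axis, starting at 0) of 12 members in every library, by group from left to right ARID1B-KO sorafenib, ARID1B-KO DMSO, WT sorafenib and WT DMSO, with points for libraries and bars for mean ± SD of 3. SDF2L1, CREB3L2 and HSPA5 reach their lowest values in ARID1B-KO with sorafenib, at 13.8, 28.8 and 870.3 CPM, and ERN1 is lower in both ARID1B-KO groups.

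ARID1B-KO cells had lower levels of a partly different set, and no member was higher in them by edgeR or DESeq2, or at an unadjusted p under 0.05. Under sorafenib 12 of 32 members were lower, where 13.8% of all tested genes were lower and 13.2% higher. Under DMSO 11 of 32 were lower, where 13.5% of all tested genes were lower and 14.3% higher. CALR, PDIA3, ERO1A, PPIB and ERN1 were lower under both treatments. The median log2 fold change of the members was -0.32 under sorafenib and -0.33 under DMSO, beside 0.00 and 0.01 for all tested genes.

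These counts moved more with single libraries than those for sorafenib. Under sorafenib 7 to 16 members were called when 1 library was left out, with 7 without replicate 2 of WT sorafenib. Under DMSO the range was 4 to 17: 4 without replicate 3 of ARID1B-KO DMSO, 5 without replicate 1 of that group, 5 without replicate 3 and 6 without replicate 2 of WT DMSO, and 17 without replicate 3 of ARID1B-KO sorafenib, which enters through the shared estimate of spread. With the effective length of each gene in each library taken into account, 4 members were called under DMSO: CALR, PDIA6, ERO1A and HYOU1. For these other fits the share of all genes called is not given here. Whether members lost calls more often than other genes was therefore not tested. The comparisons for sorafenib and for genotype share libraries, so each is given by its own values.

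**Figure D3:**
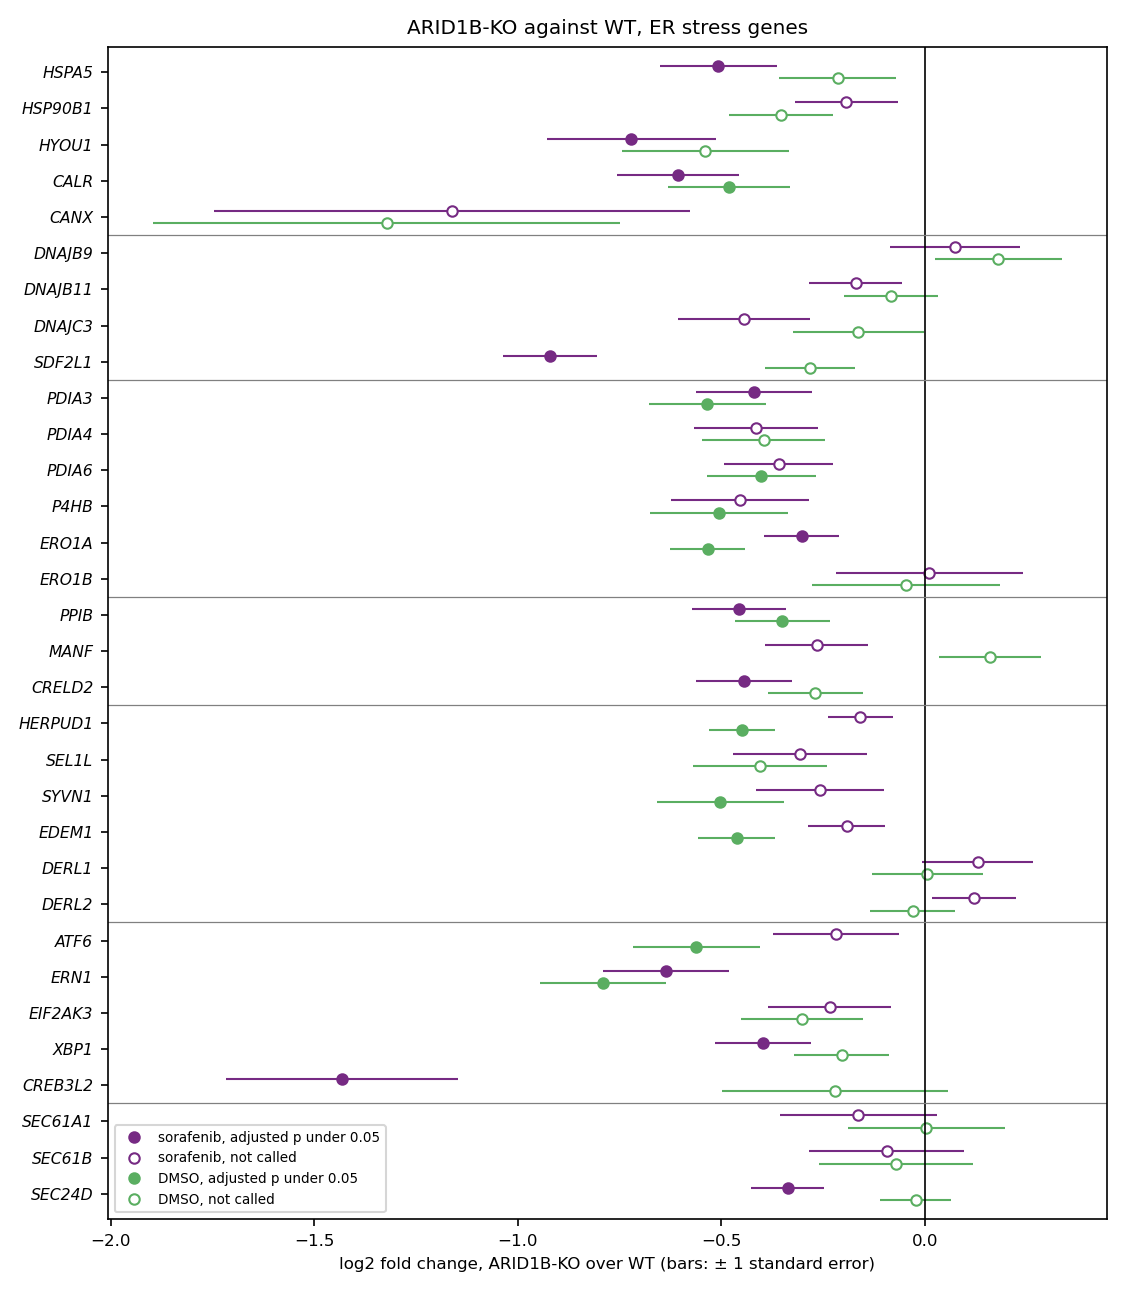
Log2 fold change of each measured member in ARID1B-KO over WT cells (horizontal axis, 0 is no difference), under sorafenib and under DMSO, with bars of 1 standard error from edgeR and filled points for adjusted p under 0.05. Every filled point lies left of 0, with CREB3L2 under sorafenib the farthest at -1.43.

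CALR, which holds glycoproteins in the ER until they are folded, was the chaperone with a lower level under both treatments. It had 1314, 1163 and 872 CPM in ARID1B-KO with sorafenib and 1702, 1810.3 and 1590.1 CPM in WT with sorafenib, and 1368, 1452 and 1109.5 CPM in ARID1B-KO with DMSO and 1750.5, 1826 and 1909.8 CPM in WT with DMSO. No ARID1B-KO library reached the lowest WT library. The log2 fold change was -0.61 ± 0.15 (adjusted p = 0.00962) under sorafenib and -0.48 ± 0.15 (adjusted p = 0.0301) under DMSO. The second was lost when replicate 2 or 3 of WT DMSO or replicate 1 or 3 of ARID1B-KO DMSO was left out (adjusted p from 0.0576 to 0.118).

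By edgeR HSPA5 and HYOU1 were called lower in ARID1B-KO cells under sorafenib and not under DMSO, but for HYOU1 this depended on the setting. HSPA5 had a log2 fold change of -0.51 ± 0.14 (adjusted p = 0.0196) under sorafenib and -0.21 (adjusted p = 0.293) under DMSO, where the libraries overlapped. HYOU1 had -0.72 ± 0.21 (adjusted p = 0.0214) under sorafenib and -0.54 ± 0.21 (adjusted p = 0.07) under DMSO, with separate libraries in both. Under DMSO it was called by DESeq2 (adjusted p = 0.0353), with total counts only (0.0323), with effective lengths in the fit (0.0315) and with only the compared groups in the fit (0.0272). HSP90B1, at -0.35 ± 0.13 under DMSO (edgeR adjusted p = 0.0549), had separate libraries and was called by DESeq2 (0.00939) and with total counts only (0.0386). The HSPA5 call was lost when replicate 1 or 2 of WT sorafenib or replicate 3 of ARID1B-KO sorafenib was left out (adjusted p from 0.0506 to 0.0667), and with only the compared groups in the fit (0.0526). The HYOU1 call was lost without replicate 2 of WT sorafenib (adjusted p = 0.0803) and with effective lengths in the fit (0.081).

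By edgeR SDF2L1 was the BiP partner called between genotypes, at -0.92 ± 0.12 (adjusted p = 9.12e-05) under sorafenib and -0.28 (adjusted p = 0.0763) under DMSO. Its libraries did not overlap between genotypes under either treatment. DNAJB9 had log2 fold changes of 0.07 and 0.18, DNAJB11 of -0.17 and -0.08, and DNAJC3 of -0.44 (adjusted p = 0.0599) and -0.16, sorafenib first. DNAJC3 was called under sorafenib by DESeq2 (adjusted p = 0.0438), with total counts only (0.0135) and with only the compared groups in the fit (0.0373). SDF2L1 under DMSO was called with only the compared groups in the fit (0.0415).

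By edgeR 2 of the 6 oxidoreductases were lower in ARID1B-KO cells under sorafenib and 4 under DMSO, and by DESeq2 5 under each, all but ERO1B. The share of all genes that DESeq2 called is not given here, so its counts have no background beside them. Under sorafenib DESeq2 added P4HB (adjusted p = 0.0268), PDIA4 (0.0308) and PDIA6 (0.0294), which edgeR also called without replicate 1 of ARID1B-KO sorafenib (0.0267, 0.0258 and 0.0254). PDIA3, the glycoprotein-specific isomerase that works with calreticulin and calnexin, had 860.4, 719 and 575 CPM in ARID1B-KO with sorafenib and 976, 1025 and 879 CPM in WT with sorafenib, and 645, 789 and 623 CPM in ARID1B-KO with DMSO and 949, 1015 and 1014 CPM in WT with DMSO. The genotypes were separate under both treatments, narrowly so under sorafenib. The log2 fold changes were -0.42 ± 0.14 (adjusted p = 0.0456) under sorafenib and -0.53 ± 0.14 (adjusted p = 0.0144) under DMSO. The sorafenib call was lost on leaving out any single one of 10 libraries, all but replicate 1 of WT DMSO and replicate 1 of ARID1B-KO sorafenib (adjusted p of up to 0.135), and under 4 of 7 other settings. The DMSO call was lost without replicate 1 or 3 of ARID1B-KO DMSO (adjusted p of up to 0.058) and with effective lengths in the fit (0.149). The processed pseudogene PDIA3P1 held at most 1.064% of the joint counts.

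ERO1A, whose values by library are given above, was lower by 0.30 ± 0.09 (adjusted p = 0.0279) under sorafenib and by 0.53 ± 0.09 (adjusted p = 0.000997) under DMSO on the log2 scale. The DMSO call held with any library left out and under the 7 other settings tried, while the sorafenib call was lost when replicate 1 or 2 of WT sorafenib or replicate 2 or 3 of ARID1B-KO sorafenib was left out (adjusted p from 0.068 to 0.0841), with no filter on low counts (0.052) and with effective lengths in the fit (0.111). P4HB, the main disulphide isomerase of the ER, fell by 0.51 (adjusted p = 0.041) and PDIA6, an isomerase that also acts on IRE1, fell by 0.40 (adjusted p = 0.0399) under DMSO on the log2 scale. The P4HB call was lost on leaving out any single one of 8 libraries (adjusted p of up to 0.153), among them 5 of the 6 DMSO libraries, and the PDIA6 call on leaving out any single one of 9 (up to 0.139), again 5 of them DMSO libraries. Under sorafenib P4HB and PDIA6 were at -0.45 (adjusted p = 0.0643) and -0.36 (adjusted p = 0.0638), with separate libraries.

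PPIB was lower in ARID1B-KO cells by 0.46 (adjusted p = 0.0111) under sorafenib and 0.35 (adjusted p = 0.0392) under DMSO on the log2 scale of counts. Per length, its level was 593 ± 29.43 TPM in ARID1B-KO with DMSO and 581 ± 35.3 TPM in WT with DMSO (SD, n = 3 each), and with effective lengths in the fit the log2 fold changes were -0.38 (adjusted p = 0.102) under sorafenib and -0.04 (adjusted p = 0.865) under DMSO. The DMSO call was also lost on leaving out any single one of 9 libraries (adjusted p of up to 0.134), all 3 ARID1B-KO DMSO libraries among them. TPM (transcripts-per-million) are scaled to effective transcript length. CRELD2 was lower under sorafenib by 0.45 (adjusted p = 0.0141), lost without replicate 1 of WT sorafenib (0.0516) and with effective lengths in the fit (0.088), and MANF was called under neither treatment.

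ERAD genes were lower in ARID1B-KO cells under DMSO in 3 of 6 cases and under sorafenib in none, by edgeR or by DESeq2 or at an unadjusted p under 0.05. Under DMSO the log2 fold changes were -0.45 ± 0.08 for HERPUD1 (adjusted p = 0.00138), -0.46 ± 0.09 for EDEM1 (adjusted p = 0.00298) and -0.50 ± 0.16 for SYVN1 (adjusted p = 0.03). EDEM1 had 40.8, 39.9 and 35.8 CPM in ARID1B-KO with sorafenib and 44.8, 45.6 and 42.7 CPM in WT with sorafenib, and 36.3, 41.9 and 37.1 CPM in ARID1B-KO with DMSO and 47.3, 52.7 and 58.9 CPM in WT with DMSO. Its genotypes were separate under both treatments. With effective lengths in the fit the adjusted p-values were 0.297 for HERPUD1, 0.0629 for EDEM1 and 0.36 for SYVN1. The SYVN1 call was also lost when replicate 2 or 3 of WT DMSO or replicate 1 or 3 of ARID1B-KO DMSO was left out (adjusted p from 0.0905 to 0.109). SYVN1 overlaps exons of FAU and MRPL49, and whether counting used strand was not given in the sources used here. CRELD2, DERL2 and DERL1 overlap exons of ALG12, MIS12 and TBC1D31 on the opposite strand. The counts of these 3 genes were 61.86, 40.42 and 13.93% of those of the member each overlaps, and the same limit holds there.

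ERN1 was the sensor lower in ARID1B-KO cells under both treatments. ERN1 (chr17:64039080-64130819, minus strand), which encodes IRE1, had 10.1, 8.62 and 7.51 CPM in ARID1B-KO with sorafenib and 12.7, 14.8 and 13.3 CPM in WT with sorafenib, and 8.27, 9.16 and 7.93 CPM in ARID1B-KO with DMSO and 11.5, 16.3 and 16.15 CPM in WT with DMSO. All 6 ARID1B-KO libraries were below all 6 WT libraries. The log2 fold change was -0.64 ± 0.16 (adjusted p = 0.00876) under sorafenib and -0.79 ± 0.16 (adjusted p = 0.00233) under DMSO, both kept with any library left out, and the DMSO call was lost with effective lengths in the fit (adjusted p = 0.132).

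ATF6 (chr1:161766298-161977574, plus strand) had 63.4, 50.6 and 37.7 CPM in ARID1B-KO with sorafenib and 59.4, 61.4 and 55.8 CPM in WT with sorafenib, and 51.0, 47.0 and 38.9 CPM in ARID1B-KO with DMSO and 63.6, 64.5 and 73.9 CPM in WT with DMSO. The genotypes overlapped under sorafenib and were separate under DMSO, at log2 fold changes of -0.22 (adjusted p = 0.332) and -0.56 ± 0.16 (adjusted p = 0.0175). The DMSO call was lost without replicate 3 of WT DMSO or replicate 3 of ARID1B-KO DMSO (adjusted p of up to 0.077) and with effective lengths in the fit (0.117).

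EIF2AK3 had 41.4, 34.3 and 27.7 CPM in ARID1B-KO with sorafenib and 42.7, 43.2 and 35.8 CPM in WT with sorafenib, and 38.4, 45.1 and 33.2 CPM in ARID1B-KO with DMSO and 42.1, 49.7 and 52.2 CPM in WT with DMSO. It overlapped in all 4 comparisons and was called in none. In every library most EIF2AK3 counts fell to a transcript with no annotated coding sequence, at 501.3 to 1147.3 counts. The 1116-residue transcript held 48.8 to 219.6, so these values are not a measure of PERK-coding mRNA alone. XBP1 was lower in ARID1B-KO cells under sorafenib by 0.40 ± 0.12 on the log2 scale (adjusted p = 0.0238) and had a log2 fold change of -0.20 (adjusted p = 0.218) under DMSO. The sorafenib call was lost when replicate 2 or 3 of WT sorafenib or replicate 3 of ARID1B-KO sorafenib was left out (adjusted p from 0.051 to 0.0836), and with only the compared groups in the fit (0.0611).

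CREB3L2 had the largest genotype difference of any member, -1.43 ± 0.29 (adjusted p = 0.00397) under sorafenib, and -0.22 (adjusted p = 0.595) under DMSO, where its libraries overlapped. SEC24D was lower under sorafenib by 0.34 ± 0.09 (adjusted p = 0.0132, and 0.052 without replicate 3 of WT sorafenib) and had a log2 fold change of -0.02 under DMSO. SEC61A1 and SEC61B were called under neither treatment.

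**Figure D4:**
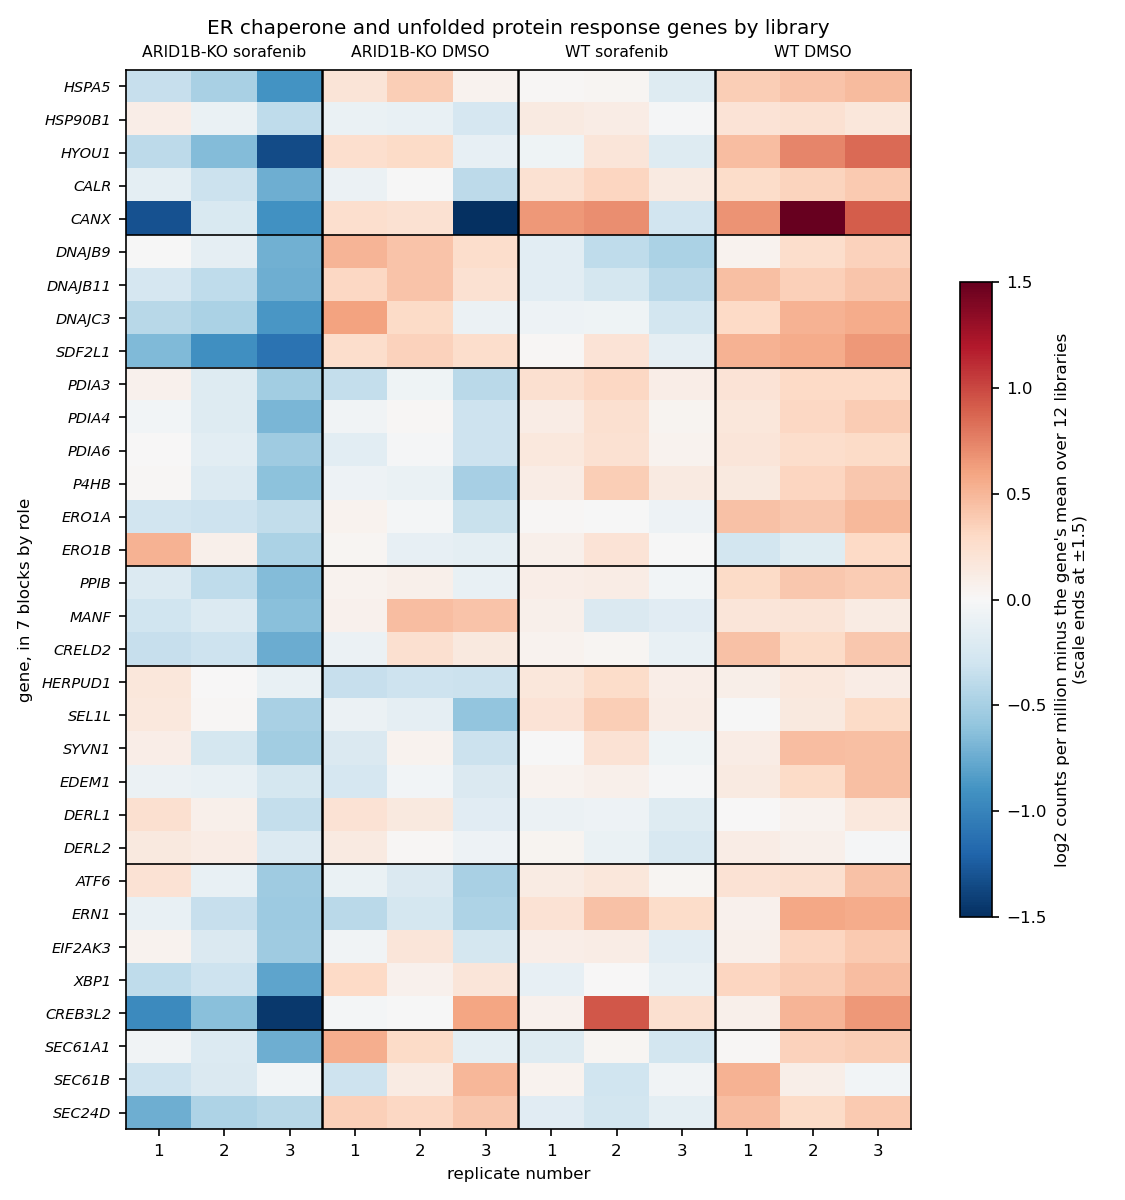
Log2 CPM of the 32 measured members (rows) in the 12 libraries (columns, from left ARID1B-KO sorafenib, ARID1B-KO DMSO, WT sorafenib, WT DMSO), each gene relative to its own mean, with the colour scale ending at -1.5 and 1.5. Most members are lowest on average in ARID1B-KO with sorafenib. Among the libraries of that group, replicate 3 holds the lowest value of 29 genes.

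Whether the sorafenib effect differed between genotypes was tested as the interaction, the sorafenib log2 fold change in ARID1B-KO minus that in WT cells. edgeR called none of the 32 members, where 0.835% of all tested genes were called, and 5 had an unadjusted p under 0.05. SDF2L1 had the lowest adjusted p of the members, at -0.64 ± 0.16 (edgeR adjusted p = 0.0752), and CREB3L2 the largest estimate, at -1.21 ± 0.40 (edgeR adjusted p = 0.178). The other 3 were MANF at -0.43, SEC24D at -0.32 and HERPUD1 at 0.29. DESeq2's Wald test called 2 members, SDF2L1 and CREB3L2, with its share of all genes not given here. The calls of PPIB, MANF, SEC61A1 and HERPUD1 in ARID1B-KO cells alone, and of ERO1A and EDEM1 in WT cells alone, were not shown by either tool to be particular to a genotype. For CREB3L2, called with sorafenib in ARID1B-KO cells alone, the interaction had an adjusted p of 0.0294 by DESeq2 and did not pass by edgeR.

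The RNase activity of IRE1 is commonly read from the spliced form of XBP1 mRNA, which lacks a short intron removed in the cytosol. The transcript annotated with the spliced reading frame of 376 residues had no counts in 11 of 12 libraries and 441.8 estimated counts, 7.84% of all XBP1 counts, in replicate 2 of WT with sorafenib. In the other libraries 3 counts would be 0.0305 to 0.0951% of the library's XBP1 total. This floor covers counting error only. It does not cover the division of shared reads between transcripts, so it sets no upper limit on the spliced share. The mean share differed by 1.31 percentage points between sorafenib and DMSO libraries, all of it from that library. With 1 non-zero library every rearrangement of labels gives a difference of the same size, so a permutation test has nothing to compare and no p is given. The transcript is listed at 1131 bases against 1850 for the unspliced one, so they differ by more than the intron, and the assignment of shared reads to it is an estimate. XBP1 splicing was not resolved by these estimates. A transcript with a retained intron took 18.7 to 41.4% of XBP1 counts.

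Levels per length put disulphide isomerases and chaperones at the top. In WT with DMSO, P4HB led with 2703 ± 774 TPM, followed by HSP90B1 at 1462 ± 49.0, PDIA3 at 959.8 ± 64.6, CALR at 943 ± 92.0, PDIA6 at 693 ± 55.0, HSPA5 at 583 ± 35.5 and PPIB at 581 ± 35.3 TPM (SD, n = 3 each). Libraries of PDIA3 and CALR overlapped, as did those of HSPA5 and PPIB, while P4HB lay above HSP90B1 in each WT DMSO library. This order did not hold in replicate 3 of ARID1B-KO with sorafenib, with P4HB at 935 and HSP90B1 at 1191 TPM, and the 2 genes were level in replicate 3 of ARID1B-KO with DMSO, both at 1352 TPM. The sensors were far lower, with ATF6 at 23.9 ± 3.72, EIF2AK3 at 17.1 ± 1.84 and ERN1 at 1.91 ± 0.29 TPM. HSPA5 averaged 295 ± 32.3 TPM in ARID1B-KO with sorafenib and 547 ± 55.6 TPM in ARID1B-KO with DMSO, against 402 ± 23.5 TPM in WT with sorafenib and 583 ± 35.5 TPM in WT with DMSO. P4HB averaged 1410.0 ± 413, 1942 ± 553, 2283 ± 773 and 2703 ± 774 TPM in the same order. In CPM the spread in WT with DMSO was smaller, at 2844 ± 247, and the effective length exceeded the length for 14.7% of transcripts in the files.

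Other genes of the same pathways were counted in 10 lists, with the backgrounds given above. In the PERK and ATF4 arm, which controls amino acid metabolism and recovery of translation, 6 of 14 tested genes fell and 2 rose with sorafenib in each genotype. ASNS, asparagine synthetase and a target of ATF4, averaged 11.3 ± 0.20 CPM in ARID1B-KO with sorafenib and 51.3 ± 4.16 CPM in ARID1B-KO with DMSO, against 17.3 ± 1.80 CPM in WT with sorafenib and 72.5 ± 9.34 CPM in WT with DMSO, with log2 fold changes with sorafenib of -2.18 (adjusted p = 3.23e-08) and -2.07 (adjusted p = 4.87e-08). EIF2S1, which encodes eIF2α, fell by 0.87 (adjusted p = 9.21e-06) and 0.79 (adjusted p = 2.95e-05) on the log2 scale. ATF4 mRNA itself had log2 fold changes of -0.30 (adjusted p = 0.0775) and -0.34 (adjusted p = 0.0556), and DDIT3, the stress factor CHOP, of 0.51 (adjusted p = 0.0509) and 0.42 (adjusted p = 0.121); both were chosen after their values were seen.

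Between genotypes the PERK and ATF4 list split evenly, with 4 of 14 lower and 4 higher in ARID1B-KO cells under each treatment. PPP1R15A, or GADD34, which directs the dephosphorylation of eIF2α, averaged 11.8 ± 0.74 CPM in ARID1B-KO with sorafenib and 24.0 ± 3.83 CPM in WT with sorafenib, and 11.6 ± 1.00 CPM in ARID1B-KO with DMSO and 26.3 ± 3.14 CPM in WT with DMSO. Its log2 fold changes were -1.02 (adjusted p = 9.28e-05) and -1.19 (adjusted p = 2.37e-05), sorafenib first. TRIB3, a pseudokinase induced by ATF4, was higher in ARID1B-KO cells, at 0.39 (adjusted p = 0.00262) under sorafenib and 0.73 (adjusted p = 2.08e-05) under DMSO, and fell with sorafenib in ARID1B-KO cells by 0.51 (adjusted p = 0.000154).

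Among 15 tested sensor partners and related factors, 3 fell and 4 rose with sorafenib in ARID1B-KO cells, and 2 fell and 3 rose in WT cells. CREB3L3, the liver-enriched member of the CREB3 family that controls lipid and acute-phase genes, averaged 69.4 ± 12.5 CPM in ARID1B-KO with sorafenib and 20.1 ± 1.85 CPM in ARID1B-KO with DMSO, against 38.6 ± 1.70 CPM in WT with sorafenib and 11.8 ± 0.80 CPM in WT with DMSO. It rose with sorafenib by 1.79 (adjusted p = 2.31e-07) and 1.71 (adjusted p = 6.02e-07) on the log2 scale and was higher in ARID1B-KO cells by 0.85 (adjusted p = 0.000194) under sorafenib and 0.76 (adjusted p = 0.000675) under DMSO. ERN2, the paralogue of IRE1 known from secretory epithelia, rose by 1.94 (adjusted p = 0.000201) and 1.29 (adjusted p = 0.00556) at levels of 1.03 to 5.40 CPM in the group means.

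Of 22 tested genes for the translocon, signal peptidase and signal recognition particle, 13 fell and 1 rose in ARID1B-KO cells and 10 fell in WT cells, led by SSR3, a subunit of the translocon-associated complex, and SRPRB, a subunit of the signal recognition particle receptor. SSR3 averaged 129 ± 16.7 CPM in ARID1B-KO with sorafenib and 312 ± 48.4 CPM in ARID1B-KO with DMSO, against 175 ± 11.3 CPM in WT with sorafenib and 315 ± 20.5 CPM in WT with DMSO. Its log2 fold changes were -1.27 (adjusted p = 4.73e-06) and -0.85 (adjusted p = 0.000188), and those of SRPRB -1.16 (adjusted p = 4.42e-05) and -0.98 (adjusted p = 0.000255). Of 10 oligosaccharyltransferase subunits 3 fell in ARID1B-KO cells, near the background, and 4 in WT cells, RPN1 by 0.54 (adjusted p = 0.00813) and 0.56 (adjusted p = 0.0088).

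Of 20 tested genes for COPII coats and exit from the ER, 6 fell and 1 rose with sorafenib in ARID1B-KO cells, and 3 fell and 1 rose in WT cells. KDELR3, a receptor that returns escaped chaperones to the ER, averaged 9.88 ± 0.74 CPM in ARID1B-KO with sorafenib and 22.5 ± 1.43 CPM in ARID1B-KO with DMSO, against 22.3 ± 0.66 CPM in WT with sorafenib and 44.9 ± 1.14 CPM in WT with DMSO. The ARID1B-KO DMSO and WT sorafenib libraries thus met at one level, with ARID1B-KO sorafenib below and WT DMSO above. Its 4 log2 fold changes were -1.19 (adjusted p = 3.28e-07) and -1.01 (adjusted p = 1.33e-06) for sorafenib in ARID1B-KO and WT cells, and -1.18 (adjusted p = 6.49e-07) and -0.996 (adjusted p = 1.89e-06) for genotype under sorafenib and DMSO. PREB, which activates the COPII coat, fell with sorafenib by 1.02 (adjusted p = 9.6e-07) and 0.60 (adjusted p = 0.000121).

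Called folding enzymes outside the member list both fell and rose with sorafenib in ARID1B-KO cells, and only fell in WT cells. Of 17 other oxidoreductases 7 fell and 2 rose with sorafenib in ARID1B-KO cells and 7 fell in WT cells, with AGR2, an isomerase of mucin-secreting cells, at -2.01 (adjusted p = 1.31e-05) and -1.96 (adjusted p = 2.45e-05) and DNAJC10, a disulphide reductase of ERAD, at -0.89 (adjusted p = 6.31e-05) and -0.87 (adjusted p = 0.000116). Between genotypes 3 were lower and 1 higher under sorafenib and 4 lower and 1 higher under DMSO, including QSOX1, a secreted sulphhydryl oxidase, at -1.28 (adjusted p = 0.000966) and -1.44 (adjusted p = 0.000376). Of 11 genes of glycoprotein folding 4 fell in ARID1B-KO and 2 in WT cells with sorafenib. Of 19 other BiP partners and prolyl isomerases, a list that includes the mitochondrial GRPEL1, 5 fell and 3 rose in ARID1B-KO cells and 6 fell in WT cells.

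SDF2, the constitutive paralogue of SDF2L1, rose with sorafenib in ARID1B-KO cells by 0.71 (adjusted p = 0.000505), the opposite direction to SDF2L1, and had a log2 fold change of 0.14 (adjusted p = 0.42) in WT cells. FKBP14, a collagen-folding isomerase, fell by 1.19 (adjusted p = 1.09e-05) and 0.98 (adjusted p = 7.8e-05). Of 26 other ERAD genes 7 fell and 3 rose in ARID1B-KO cells, and 7 fell and 2 rose in WT cells. UBE2G2, a ubiquitin-conjugating enzyme of ERAD, fell with sorafenib by 0.74 (adjusted p = 4.2e-05) and 0.43 (adjusted p = 0.00346).

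Cytosolic heat shock proteins, controlled by HSF1 and not by the ER sensors, were counted for comparison. With sorafenib 14 of 17 fell in ARID1B-KO cells and 7 of 17 in WT cells, so falls in chaperone mRNA included cytosolic chaperones. Between genotypes the counts were 2 lower and 2 higher in ARID1B-KO cells under sorafenib, and 8 higher under DMSO with none lower by edgeR, where 9 had an unadjusted p under 0.05 and 1 of these, HSPB1, was lower in ARID1B-KO cells. HSPH1, an exchange factor of cytosolic Hsp70, was at -0.82 (adjusted p = 5.99e-06) and -0.58 (adjusted p = 0.000155) for sorafenib in ARID1B-KO and WT cells, and at 0.21 (adjusted p = 0.0751) and 0.45 (adjusted p = 0.00141) for genotype under sorafenib and DMSO.

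**Figure D5:**
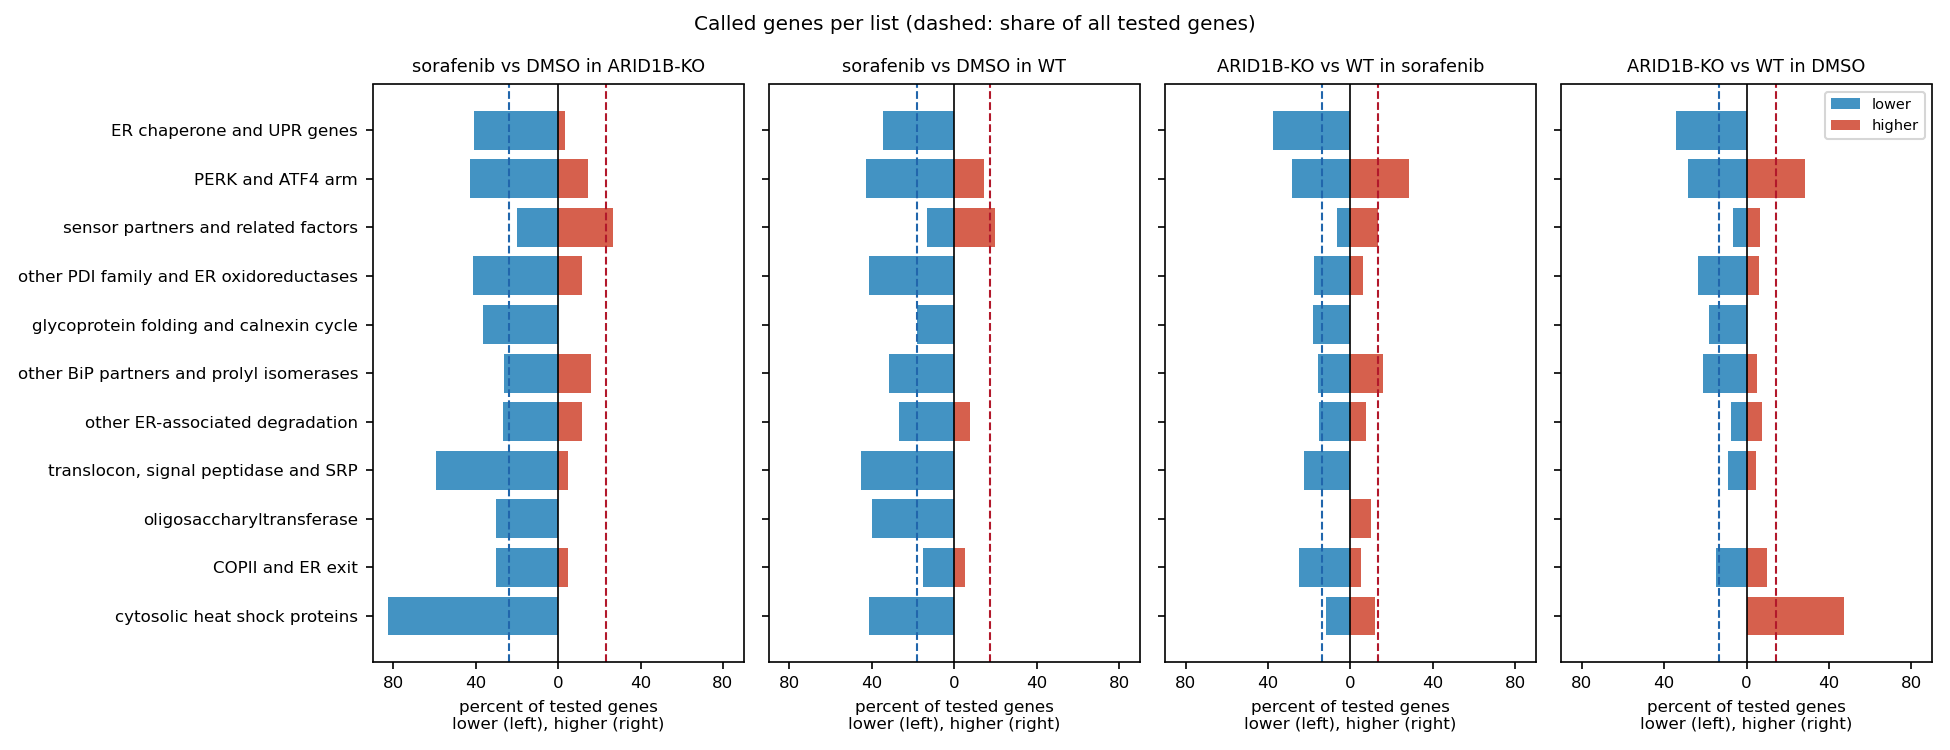
Percent of tested genes called lower (left of 0) or higher (right of 0) by edgeR in each list (rows) in the 4 comparisons (panels), with dashed lines at the percent of all tested genes. The ER chaperone and unfolded protein response genes have 13 of 32 lower with sorafenib in ARID1B-KO cells beside a background of 23.7%, and the cytosolic heat shock list has 8 of 17 higher in ARID1B-KO cells under DMSO.

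Members with and without the elements printed above were compared by their counts only. Of the 11 members with ERSE or ERSE-II, 5 fell with sorafenib in ARID1B-KO cells and 1 (HERPUD1) rose, and 5 fell in WT cells. The 5 were HSPA5, HYOU1, SDF2L1, CRELD2 and XBP1 in both genotypes. Of the 18 members with a window and neither element, 7 fell in ARID1B-KO cells and 5 in WT cells. Between genotypes, 6 of the 11 were lower in ARID1B-KO cells under sorafenib and 3 under DMSO, beside 4 and 7 of the 18. Of all tested genes, 13.8% were lower under sorafenib and 13.5% under DMSO. Outside the members, 33 genes held ERSE or ERSE-II, of which 19 were tested: 6 fell and 2 rose with sorafenib in ARID1B-KO cells, and 4 fell and 2 rose in WT cells. With sorafenib 23.7% of all tested genes fell and 23.0% rose in ARID1B-KO cells, and 18.0% fell and 17.5% rose in WT cells.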

How the data were processed

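PolyA RNA of 12 libraries was sequenced as paired reads. Per the submitters' processing notes, transcripts were quantified with Salmon and analysed with DESeq2 1.46.0, on GRCh38 with Ensembl release 109 per the labels. The authors deposited, per transcript, Salmon's estimated counts, which were not normalized, and TPM, which were scaled to effective length. Estimated counts were summed per gene through GENCODE release 44, which matched 165533 of 177456 transcripts (the unmatched held 2.87 to 3.20% of counts), and rounded to whole numbers. The values were fitted in R 4.3.3 with edgeR 4.0.16 (TMM factors 0.892 to 1.086, filterByExpr, robust quasi-likelihood F test, all 12 libraries and 4 groups in 1 fit, 5 contrasts, Benjamini-Hochberg over 12821 genes, common biological coefficient of variation 0.152). Standard errors were derived from the F statistic and the fold change. The deposited TPM served for levels between genes. The planned permutation test of the spliced XBP1 share was void, since 1 library alone was not at 0. DESeq2 1.42.0 was used as an alternative test. Named members were those fixed by function (HSPA5, HSP90B1, XBP1, ATF6, ERN1, EIF2AK3) and the 4 largest called changes per direction and contrast, and of each other list the 2 genes with the smallest adjusted p for sorafenib in ARID1B-KO and for genotype under DMSO. The members and lists were chosen with earlier results of these data known. The script was tested on simulated counts. The floor for the spliced XBP1 share covers counting error only, while the SE and SD include the spread between libraries.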

Additional observations from a re-analysis of the deposited data

How the results depend on the processing

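The 48 called member fold changes kept their direction under every setting tried, and 21 kept their call under all of them. Settings were RLE size factors, total counts only, no filter on low counts, DESeq2, the effective length offset, the replicate number as a block, only the compared groups, and each library left out. Of the pairs called in neither fit, 105 of 2037 differed in sign. Leaving out 1 library gave 12 to 15 called members for sorafenib in ARID1B-KO cells, 5 to 12 in WT cells, 7 to 16 for genotype under sorafenib, 4 to 17 under DMSO and 0 to 0 for the interaction. The effective length offset left 4 genotype calls under DMSO, and DESeq2 gave 2 interaction calls. Shares of all genes called under these settings are not given here, so the counts have no background beside them. The difference in spliced XBP1 share was 0 to 1.96 percentage points with 1 library left out, 0 without replicate 2 of WT sorafenib. The cause was not tested in any of these. ARID1B was lower with RLE size factors too, at -1.17 under sorafenib and -1.20 under DMSO.

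The labels did not say whether replicate numbers pair the samples. Deviations of same-numbered libraries from their group means correlated at -0.163 to 0.184 over 18 pairs, and those of differently numbered libraries at -0.169 to 0.183. With means of 3 libraries these values cannot decide whether the samples were paired. With the replicate number as a block, 14, 11, 15, 13 and 0 members were called in the 5 comparisons in the order above. Estimated counts divide shared reads between transcripts, so splice forms, CANX, and genes overlapping others without known strand use are least certain, and the sensors, at low CPM, rest on fewer counts than the chaperones.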

Other observations

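The core TGACGTGG was also counted in the promoter windows of the other ER and secretory lists, after the members' values were seen. Of 140 such genes with a window, 13 (9.29%) held it, beside 0.729% of all windows: TXNDC5, TXNDC11, DNAJC10, UBE2J1, VCP, SEC62, SSR3, SSR4, SRP19, SEC23A, SEC24A, SEC16A and KDELR3. The first share counts genes with a match in any of their windows and the second counts windows. A gene can have several windows, so the 2 shares are not like for like. With sorafenib 8 of the 13 fell in ARID1B-KO cells and 7 in WT cells, and none rose in either (edgeR), beside 40 lower and 13 higher and 36 lower and 7 higher of the 122 tested list genes without it. Between genotypes 5 of the 13 were lower in ARID1B-KO cells under sorafenib and 2 under DMSO, and none was higher, beside 21 lower and 13 higher and 16 lower and 11 higher of the 122. KDELR3, DNAJC10 and SSR3 are among the list genes named above, which were picked by smallest adjusted p and not by size of fall. TXNDC11, VCP, SEC62, SSR4 and SEC16A were not called with sorafenib in ARID1B-KO cells. TXNDC5, a disulphide isomerase of secretory cells, averaged 162 ± 37.9 CPM in ARID1B-KO with sorafenib and 303 ± 10.8 CPM in ARID1B-KO with DMSO, against 229 ± 56.7 CPM in WT with sorafenib and 393 ± 39.1 CPM in WT with DMSO.

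FICD was the 1 gene of those lists with ERSE in its window. It encodes the enzyme that attaches AMP to BiP and removes it again, which switches the chaperone off and on. It averaged 1.28 ± 0.13 CPM in ARID1B-KO with sorafenib and 3.60 ± 1.16 CPM in ARID1B-KO with DMSO, against 2.88 ± 0.69 CPM in WT with sorafenib and 4.16 ± 0.67 CPM in WT with DMSO. Its log2 fold change with sorafenib was -1.49 ± 0.28 (edgeR adjusted p = 0.000826) in ARID1B-KO cells and -0.52 ± 0.26 (adjusted p = 0.143) in WT cells, and between genotypes -1.17 ± 0.28 (adjusted p = 0.00788) under sorafenib and -0.20 (adjusted p = 0.6) under DMSO. These genes were chosen after their values were seen, and the level of FICD was low.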
